A study of Mus musculus with 20 samples.

Results

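Sox transcription factors were followed in colon RNA-seq of 20 mice. The set holds 8 genes, Sox4, Sox5, Sox6, Sox9, Sox11, Sox12, Sox13 and Sox17, of 32991 genes with a value. It was taken by gene name from the Sox family, with earlier results of these data known, and leaves out 11 other Sox genes with a value. The FPKM of all annotated transcripts of a gene were added in each mouse. FPKM is the number of fragments scaled by transcript length and by the mapped fragments of the library, so levels of different genes can be compared.

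Male C57BL/6 mice made up 4 groups of 5. The Control group received water. The PZH group received Pien Tze Huang, a traditional Chinese medicine preparation, at 250 mg/kg/d by gavage for 91 days. The AOM/DSS group, labelled Model, received 12.5 mg/kg azoxymethane, a colon carcinogen, and cycles of 2% dextran sulfate sodium, which injures the colon epithelium. The PZH + AOM/DSS group, labelled Model + PZH, received both. RNA was extracted from colon tissue, so fewer cells of a type and less RNA per cell cannot be told apart. Which part of the colon was taken, and whether it held tumor, is not stated. The label of the tissue is colon, although the extraction text of the labels names the abdominal aorta. Summed epithelial markers lay between 2210 and 6200 FPKM in all 20 mice, and the epithelial marker Epcam was listed at 0 in every Control mouse.

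Sox proteins bind DNA through an HMG box. Sox4, Sox11 and Sox12 form the SoxC group, active in progenitor cells. Sox5, Sox6 and Sox13 form the SoxD group, whose members have no activation domain of their own and act with partners, in cartilage together with Sox9. Sox9, of the SoxE group, is expressed at the base of intestinal crypts and is needed for Paneth cells. Sox17, of the SoxF group, acts in endoderm and blood vessels. Several Sox proteins alter the output of β-catenin with its TCF/LEF partners, the nuclear end of Wnt signaling.

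The upstream sequences of the SoxC genes are shown because these closely related genes differed in their response to AOM/DSS. They run 5′ to 3′ from 250 to 51 bases before the transcription start (RefSeq, GRCm38.p6), and capitals mark CCAAT on either strand. These letters were chosen after the sequences had been read.
Sox4, chr13:28953750-28953949, minus strand: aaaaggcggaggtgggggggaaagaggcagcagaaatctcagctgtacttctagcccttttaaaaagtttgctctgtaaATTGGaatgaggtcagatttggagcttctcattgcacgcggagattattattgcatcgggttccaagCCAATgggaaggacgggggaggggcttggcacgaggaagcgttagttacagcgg
Sox11, chr12:27342769-27342968, minus strand: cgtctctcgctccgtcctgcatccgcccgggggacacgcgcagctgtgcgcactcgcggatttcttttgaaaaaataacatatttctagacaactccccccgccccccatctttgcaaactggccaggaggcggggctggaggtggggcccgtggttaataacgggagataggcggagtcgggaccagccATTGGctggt
Sox12, chr2:152398097-152398296, minus strand: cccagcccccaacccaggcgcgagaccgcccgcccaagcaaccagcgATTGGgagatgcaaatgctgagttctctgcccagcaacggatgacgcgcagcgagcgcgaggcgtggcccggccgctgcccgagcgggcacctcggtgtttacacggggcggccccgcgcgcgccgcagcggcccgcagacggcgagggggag
The Sox4 stretch held CCAAT at 2 places and the stretches of Sox11 and Sox12 at 1 place each. Of 32851 promoters, 28.4% held it within the same 200 bases. The letters CTTTGA, part of the TCF/LEF motif, and ACAAAG, part of the Sox motif, were searched on both strands in all 300 bases around the start and are found in 5257 and 6147 of the 32851 promoters. Neither was present in Sox4, Sox5, Sox11, Sox12 or Sox13, while each of the 6 Sox6 starts held at least 1 of them. A match of letters is no binding site. Promoter entries were matched for 6 of the 8 genes, all but Sox9 and Sox17.

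Sox9 had the highest level in the Control colon, with a mean of 20.04 ± 4.57 FPKM (SD, n = 5). Sox13 and Sox4 followed at 10.7 ± 4.13 and 10.7 ± 2.08 FPKM and did not differ beyond their spread. Sox6, Sox17 and Sox12 lay at 1.35 ± 0.559, 1.29 ± 0.655 and 1.27 ± 0.346 FPKM and overlapped each other. Sox5 was low at 0.300 ± 0.0594 FPKM, and Sox11 was lowest at 0.00579 ± 0.00595 FPKM. In AOM/DSS the order changed, with Sox4 first at 69.4 ± 23.5 FPKM, above every value of Sox9. Sox17, at 10.1 ± 7.25 FPKM, overlapped Sox13, at 9.09 ± 1.15 FPKM.

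**Figure D1:**
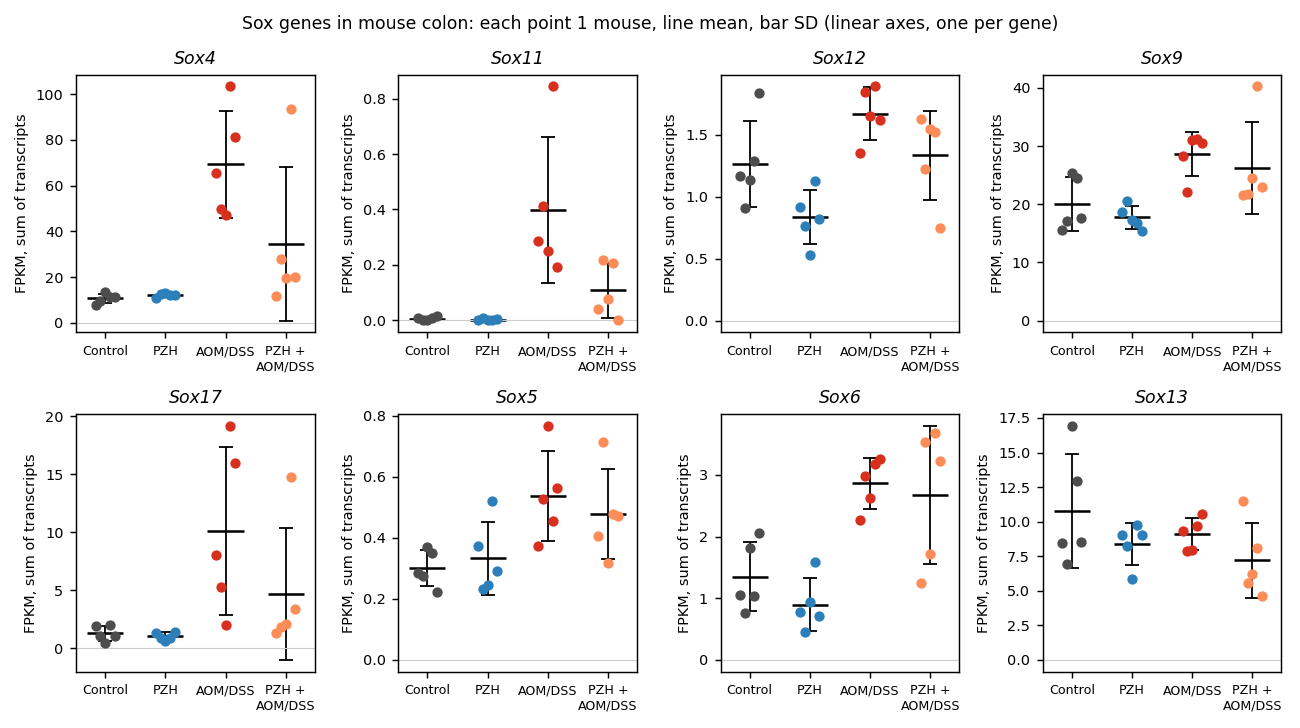
FPKM of the 8 Sox genes in each mouse by group (linear axes, a separate scale for each gene; points are mice, lines means and bars SD, n = 5). Sox4 rose from 7.92 to 13.5 FPKM in Control to 46.9 to 103 in AOM/DSS, and 1 PZH + AOM/DSS mouse stood at 93.6.

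The comparison of AOM/DSS with Control asked what the colitis-associated cancer model changed. Of the 8 genes, 6 were tested, having reached 0.5 FPKM or more in 5 or more mice. Sox4, Sox17, Sox6 and Sox9 rose, and Sox12 and Sox13 did not pass the test (limma on log2(FPKM + 1), adjusted over all genes). These 4 of 6 stand beside 23.6% of all 15812 tested genes called in either direction and 16.4% called higher. The members were chosen with earlier results of these data known, so this comparison is a description only. Fold changes on this scale understate the change of low genes. The median log2 fold change was 0.63 over the 6 genes and 0.09 over all genes.

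Sox4 (ENSMUSG00000076431.4, a gene of 1 exon, chr13:28948919-28953713, minus strand, GRCm38) is known to enhance the activity of β-catenin with TCF proteins. Its levels in Control mice 17, 37, 41, 48 and 50 were 7.92, 9.53, 13.5, 11.1 and 11.2 FPKM. In AOM/DSS mice 23, 30, 33, 44 and 52 they were 65.7, 49.8, 46.9, 103 and 81.1 FPKM. All 5 AOM/DSS mice were above every Control mouse, and mice 44 and 52 were highest. The log2 fold change was 2.55 ± 0.22 (SE, adjusted p = 2.93e-05, limma).

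Sox17 (ENSMUSG00000025902.13, chr1:4490931-4497354, minus strand) rose as well but varied widely. Control mice in the same order had 1.88, 1.03, 0.474, 2.04 and 1.04 FPKM. AOM/DSS mice had 8.05, 5.32, 1.98, 19.2 and 15.98 FPKM. Mice 44 and 52 were again highest, and mouse 33 lay within the Control range by FPKM. In estimated fragments mouse 33 had 85.5, above the 11.8 to 50.5 of Control. The log2 fold change was 2.02 ± 0.47 (SE, adjusted p = 0.0111, limma).

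Sox6 (ENSMUSG00000051910.13, chr7:115470872-116038796, minus strand) showed a smaller rise in all mice. Control values were 1.06, 0.764, 1.82, 1.03 and 2.06 FPKM. AOM/DSS values were 2.28, 2.98, 2.63, 3.17 and 3.26 FPKM. The groups did not overlap, and the log2 fold change was 0.74 ± 0.17 (SE, adjusted p = 0.00996, limma). With transcripts tested singly the call was lost, as the 1 Sox6 transcript that passed the filter, ENSMUST00000206034, differed by 0.12 (interval -0.42 to 0.67, adjusted p = 0.844, limma) with overlapping groups.

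Sox9 (ENSMUSG00000000567.5, chr11:112782224-112787760, plus strand) changed least of the called genes. Control mice had 15.5, 17.1, 25.4, 24.5 and 17.7 FPKM. AOM/DSS mice had 28.2, 22.2, 31.0, 31.2 and 30.6 FPKM. Mouse 30 was below Control mice 41 and 48, and the other 4 were above all Control mice. The log2 fold change of 0.51 ± 0.16 (SE) was called at an adjusted p of 0.0393 (limma). The call was lost without a filter (adjusted p = 0.0646), with transcripts tested singly (its only transcript, ENSMUST00000000579, adjusted p = 0.113), with median of ratios scaling (log2 fold change 0.39, adjusted p = 0.0881) and on leaving out Control mouse 17, 37 or 50 or AOM/DSS mouse 23, 33, 44 or 52 (adjusted p from 0.0729 to 0.0910).

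Groups that did not overlap were seen for 2 of the 6 tested genes, Sox4 and Sox6, and for 18.4% of all tested genes in either direction. A fold above 2 with an unadjusted p under 0.05 was met by 2 of the 6, Sox4 and Sox17, and by 7.71% of all genes.

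Sox12 (ENSMUSG00000051817.8, chr2:152393611-152398063, minus strand), the third SoxC gene, ranged from 0.912 to 1.84 FPKM in Control and from 1.35 to 1.89 in AOM/DSS. The log2 difference was 0.25 with a 95% interval from -0.03 to 0.52 (adjusted p = 0.189, limma). Sox13 (ENSMUSG00000070643.11, chr1:133382303-133424377, minus strand) ranged from 6.93 to 16.95 FPKM in Control and from 7.86 to 10.6 in AOM/DSS. Its log2 difference was -0.16 with an interval from -0.63 to 0.31 (adjusted p = 0.633, limma), and it turned to 0.01 without Control mouse 41, the highest.

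Sox11 and Sox5 did not pass the 0.5 FPKM filter. Sox11 (ENSMUSG00000063632.6, chr12:27334264-27342574, minus strand) is mostly known from embryonic and neural progenitors. It was listed at 0 in 2 Control mice and at 0.00735, 0.00749 and 0.0141 FPKM in the others, at most 2.00 estimated fragments in a mouse. AOM/DSS mice 23, 30, 33, 44 and 52 had 0.287, 0.413, 0.250, 0.844 and 0.191 FPKM, or 28.0 to 118 estimated fragments. All were above every Control mouse. With no filter the adjusted p was 0.0183 (limma). A gene that passes a filter only through the group in which it is high had to differ, so this adds nothing to the count above.

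Sox5 (ENSMUSG00000041540.16, chr6:143828425-144781977, minus strand) ranged from 0.224 to 0.369 FPKM in Control and from 0.375 to 0.769 in AOM/DSS. The groups did not overlap, by a narrow margin. The adjusted p was 0.0712 with no filter and 0.0493 with a filter of at least 10 estimated fragments in 5 mice, which was chosen after seeing the data (limma).

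**Figure D2:**
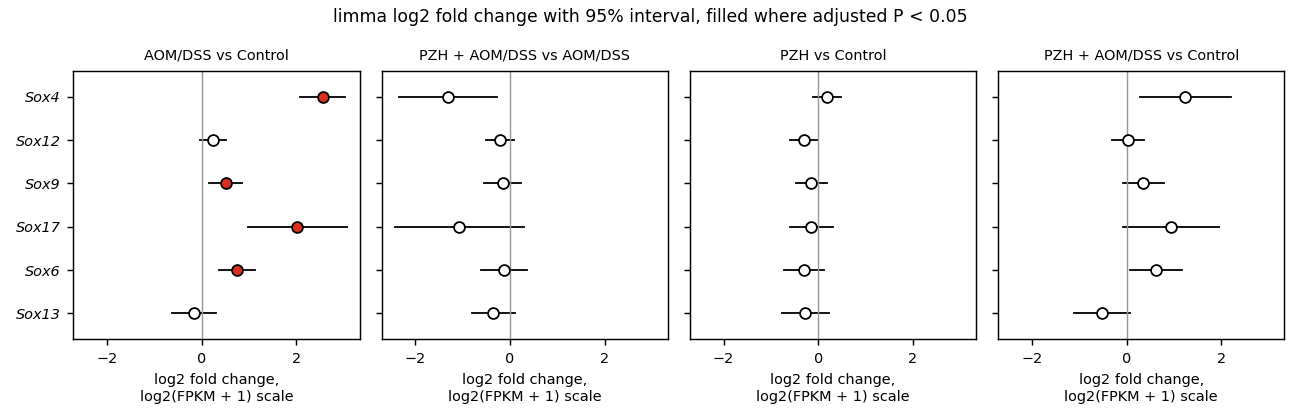
limma log2 fold changes on the log2(FPKM + 1) scale with 95% intervals for the 6 tested Sox genes in 4 comparisons, filled where the adjusted p is under 0.05. The filled points are Sox4 (2.55), Sox17 (2.02), Sox6 (0.74) and Sox9 (0.51) in AOM/DSS against Control.

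Between PZH + AOM/DSS and AOM/DSS, the comparison that asks what PZH did in the model, no Sox gene passed the adjusted test. All 6 tested genes had lower means with PZH on the log2 scale. Their median log2 fold change was -0.28, and the median over all tested genes was also below 0, at -0.04. By limma, 0 of 6 had an adjusted p under 0.05, against 0.00629% of 15888 genes, and 1 of 6 had an unadjusted p under 0.05, against 11.7%. That gene, Sox4, was also the 1 of 6 with both a fold above 2 and an unadjusted p under 0.05, against 2.40% of all genes. No tested Sox gene had groups that did not overlap, against 1.08% of all genes.

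Sox4 in PZH + AOM/DSS mice 2, 13, 15, 35 and 36 was at 19.5, 11.6, 27.9, 93.6 and 19.8 FPKM. The first 3 of these and mouse 36 were below every AOM/DSS mouse, whereas mouse 35 was above all but 1 of them. The log2 difference was -1.31 ± 0.47 (SE, adjusted p = 0.362, limma). Without mouse 35 it was -1.76 (adjusted p = 0.0108, limma), and the remaining 4 mice averaged 19.7 ± 6.67 FPKM (SD). Of 10 fits that each left out 1 mouse, only this 1 called Sox4, the others having an adjusted p from 0.346 to 0.623 (limma). Mouse 35 stood apart in these same Sox4 values, so the fit without it is a description.

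Mouse 35 was also highest of its group for Sox6, Sox9 and Sox17. Sox17 in the same 5 mice was at 2.07, 1.35, 1.81, 14.8 and 3.40 FPKM, and the log2 difference from AOM/DSS was -1.07 with an interval from -2.44 to 0.29 (adjusted p = 0.520, limma). Sox9 was at 24.4, 21.6, 21.8, 40.3 and 22.9 FPKM, a log2 difference of -0.15 (interval -0.54 to 0.24, adjusted p = 0.757, limma). Without mouse 35 the log2 differences were -1.55 for Sox17 (adjusted p = 0.118) and -0.31 for Sox9 (adjusted p = 0.159), neither of them called (limma).

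Sox6 was at 1.72, 1.25, 3.53, 3.68 and 3.22 FPKM, so that by FPKM mice 2 and 13 were below and mice 15 and 35 above the AOM/DSS range. In estimated fragments, mice 15 and 35 had 204.5 and 323, not above the 215.5 to 374.5 of AOM/DSS. Short transcripts weigh more in an FPKM sum. In mouse 15, ENSMUST00000205479, of 331 bases, added 1.15 FPKM. The log2 difference was -0.12 (interval -0.61 to 0.36, adjusted p = 0.855, limma). Sox12 and Sox13 differed by -0.21 (interval -0.51 to 0.09) and -0.35 (interval -0.81 to 0.11). Sox11, not tested at the filter, was at 0.0777, 0.0414, 0.218, 0.207 and 0 FPKM, with 3 of 5 mice below the AOM/DSS range.

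**Figure D3:**
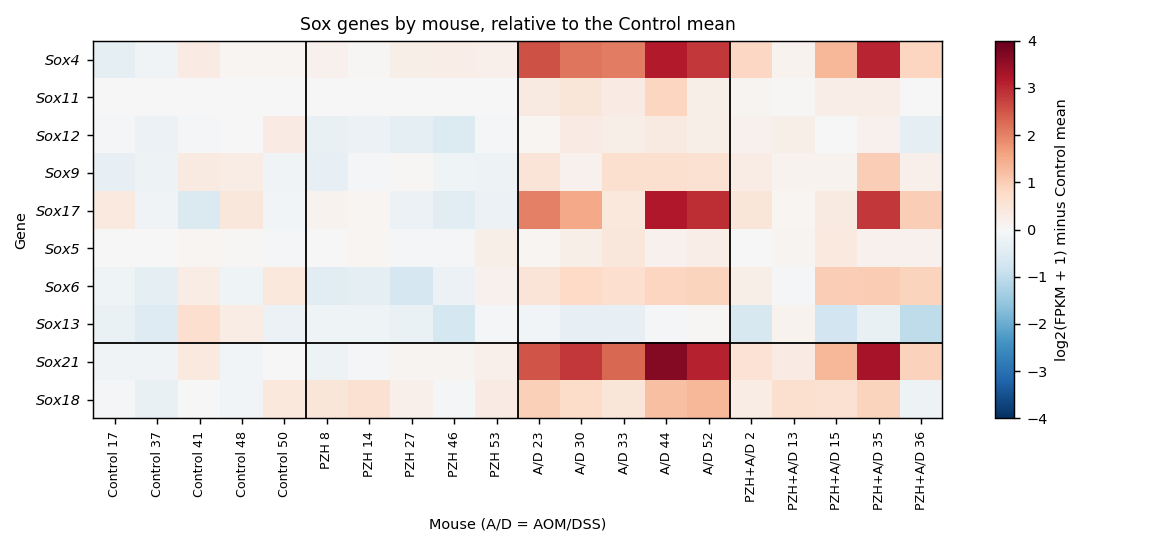
log2(FPKM + 1) minus the Control mean for the 8 Sox genes and, under the line, Sox21 and Sox18, in each mouse (A/D, AOM/DSS). PZH + AOM/DSS mouse 35 resembles the AOM/DSS mice in Sox4, Sox17 and Sox21, at 93.6, 14.8 and 21.9 FPKM.

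PZH without the model was compared with Control. By limma, 0 of the 6 genes passed the adjusted test, against 0.00645% of 15506 genes, and 1 of 6 had an unadjusted p under 0.05, against 8.84%. No Sox gene had groups that did not overlap, against 1.81% of all genes. The gene with the low unadjusted p was Sox12, at 0.823, 0.920, 0.766, 0.533 and 1.13 FPKM in PZH mice 8, 14, 27, 46 and 53, with 3 of 5 below the lowest Control mouse. Its log2 difference was -0.30 ± 0.13 (SE, adjusted p = 0.554, limma). Sox4 in these mice was at 12.0, 10.9, 12.4, 12.9 and 12.3 FPKM, within the Control range, with a log2 difference of 0.18 (interval -0.10 to 0.47). Sox9 ranged from 15.4 to 20.55 FPKM, Sox17 from 0.615 to 1.43 and Sox6 from 0.453 to 1.60, and Sox11 was listed at 0 in 3 of the 5 PZH mice. Of the 6 tested genes, 5 had lower means than in Control on the log2 scale. The median log2 fold change was -0.21 over the 6 genes and 0.01 over all tested genes.

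PZH + AOM/DSS was also set against Control, which it shares with other comparisons. By limma, 0 of 6 genes passed the adjusted test, against 2.42% of 15616 genes, and 2 of 6, Sox4 and Sox6, had an unadjusted p under 0.05, against 20.9%. Sox4 was above every Control mouse in 4 of 5 mice, with a log2 difference of 1.24 (adjusted p = 0.144, limma). With all 20 mice in 1 model the adjusted p was 0.0370. Without mouse 35 the difference was 0.79 (adjusted p = 0.121), and the number of Sox genes with a fold above 2 and an unadjusted p under 0.05 went from 1 to 0. Sox6 differed by 0.62 (adjusted p = 0.187, limma).

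The interaction, the difference between the effect of PZH with and without AOM/DSS, was tested over all 20 mice, where Sox5 also passed the filter. By limma, 0 of 7 genes passed the adjusted test, against 0.0118% of 16936 genes, and 1 of 7 had an unadjusted p under 0.05, against 10.3%. That gene was Sox4, with -1.50 on the log2 scale (interval -2.57 to -0.43, adjusted p = 0.380). Without mouse 35 it was -1.95 (adjusted p = 0.00230), and with array quality weights -1.73 (adjusted p = 0.0494). The fit without mouse 35, which stood apart in these same values, was the only 1 of 20 leaving out a mouse that called Sox4.

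Sox17 was made up of 7 transcripts in the files, 4 of them with a mean of at least 0.5 FPKM in a group. In AOM/DSS mouse 44 the largest was ENSMUST00000192650 with 9.35 FPKM, and in mouse 52 it was ENSMUST00000027035 with 10.2 FPKM. The share of ENSMUST00000027035 in the Sox17 sum ranged from 10.3% to 64.0% in AOM/DSS and from 0% to 49.3% in Control (exact two-sided permutation test, p = 0.183, adjusted p = 0.243 over 4 tests). The largest transcript thus differed between these 2 mice. For Sox13 the share of ENSMUST00000153799 averaged 65.5% in AOM/DSS and 64.3% in Control (exact permutation test, p = 0.833, adjusted p = 0.833). Against AOM/DSS, PZH + AOM/DSS gave p = 0.135 for Sox13 and p = 0.143 for Sox17 in the same exact test, each with an adjusted p of 0.243.

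**Figure D4:**
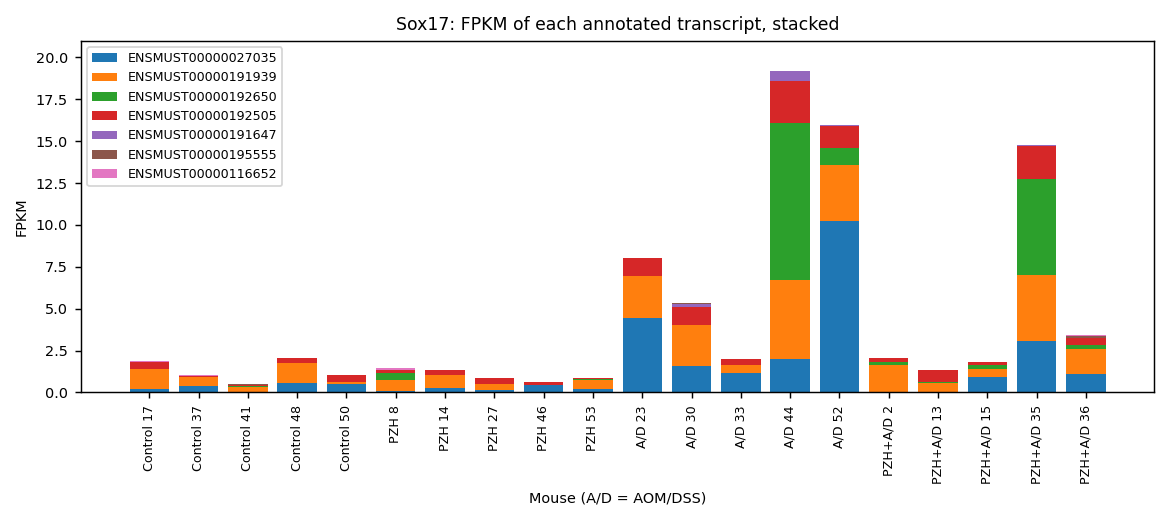
FPKM of the 7 annotated Sox17 transcripts, stacked, in each mouse (A/D, AOM/DSS). The bars of AOM/DSS mice 44 and 52 and PZH + AOM/DSS mouse 35 reach 19.2, 15.98 and 14.8 FPKM, and the largest transcript is ENSMUST00000192650 in mice 44 and 35 and ENSMUST00000027035 in mouse 52.

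Among 11 other Sox genes with a value, 4 passed the filter in AOM/DSS against Control and 2 rose, beside 16.4% of all genes called higher. The 2 not called were Sox10, with a log2 difference of -0.61, and Sox7, with 0.22. Sox21, a repressor of the SoxB group, ranged from 1.11 to 2.05 FPKM in Control and from 10.3 to 28.3 in AOM/DSS, a log2 fold change of 2.88 ± 0.24 (SE, adjusted p = 2.42e-05, limma). Sox18, an endothelial SoxF gene, ranged from 3.81 to 7.05 and from 7.27 to 13.9 FPKM, a log2 fold change of 0.94 ± 0.19 (SE, adjusted p = 0.00542, limma). Neither overlapped. In PZH + AOM/DSS, Sox21 was at 2.46, 1.93, 4.83, 21.9 and 3.40 FPKM, in which mouse 35 again stood apart, and it differed from AOM/DSS by -1.58 (adjusted p = 0.356, limma).

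Deviations from the group means of log2(FPKM + 1) were compared over the 20 mice, as a description. The mice share a library between all genes, so depth and tissue composition enter every correlation. Sox4 was most like Mdfi (r = 0.96), Sox21 (r = 0.96) and Bmp7 (r = 0.95) among 16936 genes, and without mouse 35 these were 0.87, 0.85 and 0.87. Sox17 was most like Otop1 (r = 0.93, or 0.88 without mouse 35). Sox9 was most like Tent5c (r = 0.87, or 0.76) and Sox6 most like Fam234b (r = 0.85, or 0.83). Between members, Sox4 and Sox17 had r = 0.76, or 0.53 without mouse 35, and Sox4 and Sox9 r = 0.73, or 0.43. Sox4 and Sox12, both SoxC genes, had r = 0.10, or -0.10.

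Genes of the same pathways were read from lists, to be set beside the 16.4% of all genes called higher and 23.6% called in either direction. Of 8 tested β-catenin and partner genes, 3 rose and 1 fell in AOM/DSS. Lef1, a DNA-binding partner of β-catenin, rose by 2.12 on the log2 scale, Bcl9 by 0.64 and Ctnnb1, β-catenin itself, by 0.52, and Tcf7l1 fell by 0.78. Of 12 crypt progenitor genes 8 rose, among them the stem cell marker Lgr5 (2.46) and the Wnt target Axin2 (2.12). Of 7 Paneth cell genes, Mmp7, Defa17 and Defa24 were listed at 0 in every Control mouse and passed the filter only through AOM/DSS, so they had to differ. The other 4 rose, with Lyz1 at a log2 fold change of 7.14. Of 3 tested cartilage genes, targets of Sox9 with Sox5 and Sox6 in that tissue, Col9a3 (2.40) and Col9a2 (1.14) rose. In PZH + AOM/DSS against AOM/DSS, 0 genes of these lists passed the adjusted test by limma. At an unadjusted p under 0.05, 5 of 12 crypt progenitor and 5 of 7 Paneth cell genes were lower, and 1 of 8 β-catenin and partner genes was higher, beside the 11.7% of all genes.

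Some lists of other cell types changed in AOM/DSS, to be set beside the 16.4% of all genes called higher and 23.6% in either direction. All 6 smooth muscle genes fell in AOM/DSS (median log2 fold change -1.23), with a summed level of 2244 to 5172 FPKM in Control and 996 to 1734 in AOM/DSS. Of 5 tested enteric glia genes 2 fell, and the summed level of the list was 6.01 to 12.9 FPKM in Control and 3.21 to 6.22 in AOM/DSS. Of 7 blood endothelial genes 1 rose, and the summed level was 21.3 to 34.5 FPKM in Control and 25.9 to 34.7 in AOM/DSS. Of 7 tested epithelial genes 1 fell, and of 6 T cell genes 4 rose. Fibroblast genes went both ways, with 2 of 7 higher and 2 lower, as did enteric neuron genes, with 1 of 5 higher and 2 lower. Of 3 lymphatic endothelial genes 1 rose, Prox1, which reached 0.5 FPKM in no Control mouse. Among dividing cell genes 0 of 5 were called, and among tested tuft cell genes 0 of 2. Crypt progenitor genes summed to 340 FPKM in PZH + AOM/DSS mouse 35, the highest of its group (149 to 340), and to 239 to 319 in AOM/DSS. The part of these shifts in the Sox values was not tested.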

How the data were processed

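Colon RNA from 20 mice was sequenced after rRNA depletion and, as the methods describe, isolation of poly(A) mRNA. According to the methods, the authors filtered reads, aligned them to mm10 with HISAT2 and deposited FPKM per transcript from StringTie, 118434 transcripts per mouse. Ensembl transcripts were summed by gene with GENCODE M21. The 22252 assembled transcripts were left out, so fragments given to them are missing from their genes. Values were read as log2(FPKM + 1) and compared with limma 3.58.1 (R 4.3.3, trend, 10 mice of the compared groups, 20 for the interaction), with Benjamini-Hochberg adjustment over all genes. Depth was estimated from the step between low FPKM values at 15.3 to 19.4 M fragments per mouse, and since only part of the values lie on whole steps this is uncertain. In simulated data for AOM/DSS against Control (16058 genes), 94 of 100 genes changed by 2 on the log2 scale and 73 of 100 changed by 1 were called. The changed genes were drawn from those with at least 2 FPKM in all 10 mice. These shares therefore do not cover lower genes such as Sox5, Sox6, Sox11, Sox12 and Sox17. Genes were named by list, by size of the change and by likeness. The members and lists were chosen with earlier results of these data known. Each library is 1 mouse. Alternatives were the pseudocount, filters, scaling, model, weights, single transcripts and leaving out each mouse.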

Additional observations from a re-analysis of the deposited data

Results flagged for a closer look

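Each of 40 groups of 5 values (the 8 Sox genes, Sox21 and Sox18 in 4 groups) was searched for 1 mouse far from the others. Chance gives about 2 if the groups are independent, and 5 were found. Genes measured in the same mice are not independent, so 5 cannot be weighed against 2. PZH + AOM/DSS mouse 35 stood apart in 4 of the 5. Its Sox4 was 93.6 FPKM, the other 4 mice lying between 11.6 and 27.9. Its Sox9 was 40.3 FPKM, against 21.6 to 24.4. Its Sox17 was 14.8 FPKM, against 1.35 to 3.40. Its Sox21 was 21.9 FPKM, against 1.93 to 4.83. The remaining value was Sox21 in Control mouse 41, at 2.05 FPKM against 1.11 to 1.29 in the other 4. No cause was tested.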

How the results depend on the processing

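The number of Sox genes called in AOM/DSS against Control was 4 of 6. It was 6 of 8 with the filter on estimated fragments, chosen after seeing the data, beside 3935 of all 16590 genes. These 6 include Sox11, which passed that filter only through AOM/DSS and so had to differ. The count was 3 with median of ratios scaling and 3 with 0.5 FPKM in every mouse. With single transcripts, 2 of 9 transcripts were called, 1 each of Sox4 and Sox17, beside 2808 of all 40464 transcripts. Leaving out 1 mouse gave 3 to 4. In PZH + AOM/DSS against AOM/DSS the count of 0 became 1 without PZH + AOM/DSS mouse 35 (0 to 1 over the left-out mice). In PZH + AOM/DSS against Control it became 1 with all 20 mice in 1 model. The interaction count became 1 with array quality weights and 1 without mouse 35 (0 to 1). Apart from the fragment filter and single transcripts, no share of all genes called is given beside the counts of these alternative fits. Signs turned only among uncalled differences. Sox12 in PZH + AOM/DSS against Control was -0.00465 with median of ratios scaling and -0.0197 to 0.139 over left-out mice, and the Sox9 interaction 0.0413 and -0.169 to 0.0720. Over left-out mice Sox13 in AOM/DSS against Control ran from -0.286 to 0.00819, Sox6 in PZH + AOM/DSS against AOM/DSS from -0.226 to 0.0388 and the Sox13 interaction from -0.244 to 0.0502. The cause was not tested. No paired analysis was possible because the groups share no mouse numbers. Depth limits Sox11, with at most 2.00 estimated fragments in a Control mouse.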
